A study of Mus musculus with 6 samples.

Results

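The 10 genes described here are Ccnd2, Ccnd3, Cdk4, Cdk6, Cdkn1a, Cdkn1b, Cdkn2c, Cdkn2d, Rb1 and Btg1, which encode cyclins D2 and D3, their kinases, kinase inhibitors, the retinoblastoma protein and an antiproliferative factor. They were taken by gene symbol from a table of 24421 genes, in which all 10 were found and all 10 had enough reads to be tested. The libraries were made from total RNA of mouse regulatory T cells (Tregs) of spleen and lymph nodes, a CD4 lineage that restrains immune responses and depends on the transcription factor Foxp3. The Srebp2WT libraries (numbers 1, 3 and 5) have the genotype Srebp2WT/WT-Foxp3YFPCRE+/+ and the Srebp2cKO libraries (numbers 6, 7 and 8) the genotype Srebp2FL/FL-Foxp3YFPCRE+/-. Both groups therefore carried a Cre recombinase with yellow fluorescent protein at the Foxp3 gene, and the floxed alleles of Srebf2, the gene of the sterol regulator SREBP2, were present only in Srebp2cKO. The number of Cre alleles differed together with the Srebf2 genotype, so their effects cannot be told apart. Foxp3 is X-linked, so a +/- female expresses this Cre in only part of its Tregs. Whether cells were sorted on the fluorescent protein is not stated in the labels, and the remaining Srebf2 level is given below. The labels give no age or sex and do not tie libraries to separate mice, so the spread behind each p-value may be purely technical.

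A resting lymphocyte enters the cell cycle when D-type cyclins bind the kinases CDK4 and CDK6. These complexes phosphorylate RB, which otherwise holds E2F transcription factors inactive, and E2F then switches on genes of DNA replication. INK4 inhibitors such as p18 (Cdkn2c) and p19 (Cdkn2d) bind CDK4 and CDK6 directly, whereas the CIP/KIP inhibitors p21 (Cdkn1a) and p27 (Cdkn1b) bind cyclin and kinase complexes more broadly. BTG1 joins mRNAs to the CCR4-NOT deadenylase and is abundant in quiescent T cells. SREBP2 is the main activator of cholesterol synthesis genes, and proliferating lymphocytes need sterols for new membrane.

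RefSeq promoter windows on GRCm38.p6, each reaching from 250 bases before to 50 bases after a start, were present for 8 of the 10 genes (11 windows), and Ccnd2 and Rb1 had none listed. They were searched on both strands for the letters that E2F, FOXO, SREBP, STAT and other factors are known to prefer. The E-box CACGTG, read by MYC and related factors, stood 4 times in the window of Cdk4 and once in that of Cdk6. At least 1 E-box was present in 7.15% of all 32851 windows, and 4 or more in 8 windows, or 0.0244%. The FOXO letters GTAAACA, held by 3.65% of windows, stood once in the window of Btg1 and once in the first of the 2 windows of Ccnd3. The second window of Ccnd3, from 47593217, held no such match. The 4 stretches are shown because they set the kinase pair side by side and mark the genes with a FOXO match. Each runs from the start of its window to the base before the first annotated exon in that window or, where there is none, before the RefSeq start, on the plus strand, with E-boxes (first pair) or FOXO letters on either strand (second pair) in capitals.
Cdk4, chr10:127063285-127063533: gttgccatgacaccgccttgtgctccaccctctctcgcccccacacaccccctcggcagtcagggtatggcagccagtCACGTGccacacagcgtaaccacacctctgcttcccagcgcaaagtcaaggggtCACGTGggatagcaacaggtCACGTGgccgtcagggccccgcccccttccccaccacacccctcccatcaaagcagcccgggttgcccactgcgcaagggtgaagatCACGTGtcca
Cdk6, chr5:3343643-3343731: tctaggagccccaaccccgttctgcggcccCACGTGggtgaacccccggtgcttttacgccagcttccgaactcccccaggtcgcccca
Btg1, chr10:96616751-96617000: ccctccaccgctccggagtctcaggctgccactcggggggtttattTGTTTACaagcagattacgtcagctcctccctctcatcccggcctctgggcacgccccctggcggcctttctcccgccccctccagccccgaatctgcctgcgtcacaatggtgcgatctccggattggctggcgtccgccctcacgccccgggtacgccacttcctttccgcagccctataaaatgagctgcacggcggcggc
Ccnd3, chr17:47504801-47505050: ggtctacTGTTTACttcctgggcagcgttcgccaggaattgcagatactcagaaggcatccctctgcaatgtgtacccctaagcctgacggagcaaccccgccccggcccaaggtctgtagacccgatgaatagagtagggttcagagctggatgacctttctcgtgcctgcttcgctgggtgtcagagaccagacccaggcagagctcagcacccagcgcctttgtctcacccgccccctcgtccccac
The first base of the Cdk4 matches lay 172, 118, 98 and 11 bases before the start, and that of the Cdk6 match 220 bases before it. The Cdk6 stretch lies inside the annotated span of the gene, after the start of a transcript that begins at 3341485. A second start of Cdkn2c had 1 further E-box, 35 bases into the transcript. The GC box GGGCGG, present in 35.7% of windows, stood 5 times in the window of Cdkn2d and 4 times in the first window of Cdkn2c. At least 5 were held by 2.71% of windows and at least 4 by 5.49%. No window of these genes held the sterol regulatory letters TCACNCCAC (1.24% of windows), the E2F letters TTTCGCGC, TTTGGCGC or TTCCCGCC (2.96%), the STAT letters TTCNNNGAA (8.3%) or the letters TTTGAA of the cell cycle homology region (17.9%), which says only that these letters are not in these windows. CCAAT, in 37.4% of windows, stood 3 times in the window of Cdkn1b. Matches are descriptions of sequence and were not tied to any measured binding.

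The libraries held 13918321 to 17249898 counts, with 14158 to 14689 genes detected. Srebf2 had 3043, 2980 and 2548 counts in Srebp2WT libraries 1, 3 and 5 and 187, 197 and 183 in Srebp2cKO libraries 6, 7 and 8, so that its level in Srebp2cKO was 6.66% of that in Srebp2WT. Foxp3 had 6345 to 7183 counts in every library, and summed Treg markers reached 4257 to 4497 CPM (counts scaled to a common library total) in Srebp2WT and 4154 to 4303 in Srebp2cKO. Of the 7 Treg markers, Il2ra was called higher (log2 fold change 0.41, adjusted p = 0.0101 in edgeR) and Tnfrsf18 lower (-0.39, adjusted p = 0.0438). Without a call, Ctla4 was higher in every Srebp2cKO library (0.23, adjusted p = 0.0897 in edgeR). Ikzf2 (-0.26, adjusted p = 0.0645) and Cd3e (-0.09, adjusted p = 0.434) were lower in every one, also without a call. Markers of effector Tregs summed to 1000 to 1206 CPM against 639 to 811 in Srebp2cKO, with 7 of 10 called lower, and those of resting Tregs to 3156 to 3803 CPM against 4347 to 5157, with 4 of 10 called higher. B cell markers summed to 21.2 to 30.04 CPM against 10.2 to 13.4, with Ms4a1 at 2 counts or fewer in every library. Of 3 tested B cell markers, Cd22 (47 to 249 counts) and Cd79b (98 to 208 counts) were called lower. The third, Cd79a (8 to 17 counts), was higher in every Srebp2cKO library without a call (log2 fold change 0.56). Natural killer markers summed to 4.52 to 5.66 CPM against 3.83 to 7.55, with Ncr1 at 0 and Klrb1c (9 to 42 counts) called lower. Eomes (46 to 105 counts) had a log2 fold change of 0.66 without a call. Myeloid markers summed to 50.6 to 85.0 CPM against 33.1 to 39.4, mostly Cybb, with Lyz2 at 5 counts or fewer. Cybb was called lower (log2 fold change -0.87, adjusted p = 0.0216 in edgeR). Itgam (10 to 38 counts) had a log2 fold change of 1.07 without a call. CD8 markers summed to 7.01 to 7.59 CPM against 8.70 to 10.3 and stromal markers, mostly Pecam1, to 168 to 181 CPM against 217 to 231. Pecam1 was called higher (log2 fold change 0.39, adjusted p = 0.0139 in edgeR), while Cdh5 and Pdgfrb had 2 counts or fewer in every library. The part of these shifts in the results below was not tested, and in bulk samples fewer cells of a type and less RNA per cell cannot be told apart.

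None of the 10 genes was called between genotypes by the quasi-likelihood test of edgeR at a false discovery rate of 0.05, adjusted over 11932 tested genes. The same rule called 6.61% of all tested genes (789), 2.37% higher and 4.24% lower in Srebp2cKO. At an unadjusted p under 0.05 stood 4 of the 10 (Ccnd2, Cdk6, Cdkn2c and Rb1), against 29.1% of all tested genes. The 3 libraries of one genotype lay wholly above those of the other for 4 of the 10, against a background of 31.5%. Of these, Ccnd2, Cdkn2d and Rb1 were higher in Srebp2cKO (16.0% of all genes) and Cdk6 was lower (15.5% of all genes). The share of these genes with separate genotypes was thus near that of all genes. Log2 fold changes, Srebp2cKO minus Srebp2WT, were positive for 6 and negative for 4, with a median of 0.21 where all tested genes had a median of -0.00015. With a trend on transcript GC removed (described below), 8 were positive and 2 negative, with a median of 0.09. The genotypes then overlapped for Ccnd2 and Rb1 and stayed separate for Cdkn2d and Cdk6. The number of calls among all genes fell to 167 without Srebp2WT library 1, 184 without Srebp2WT library 3, 298 without Srebp2cKO library 7 and 439 without Srebp2cKO library 8, and stood at 1487 (12.3%) without Srebp2cKO library 6. Without Srebp2cKO library 6, the edgeR test called Cdk6 lower (log2 fold change -0.43, adjusted p = 0.0463) and Rb1 higher (0.43, adjusted p = 0.0186).

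**Figure D1:**
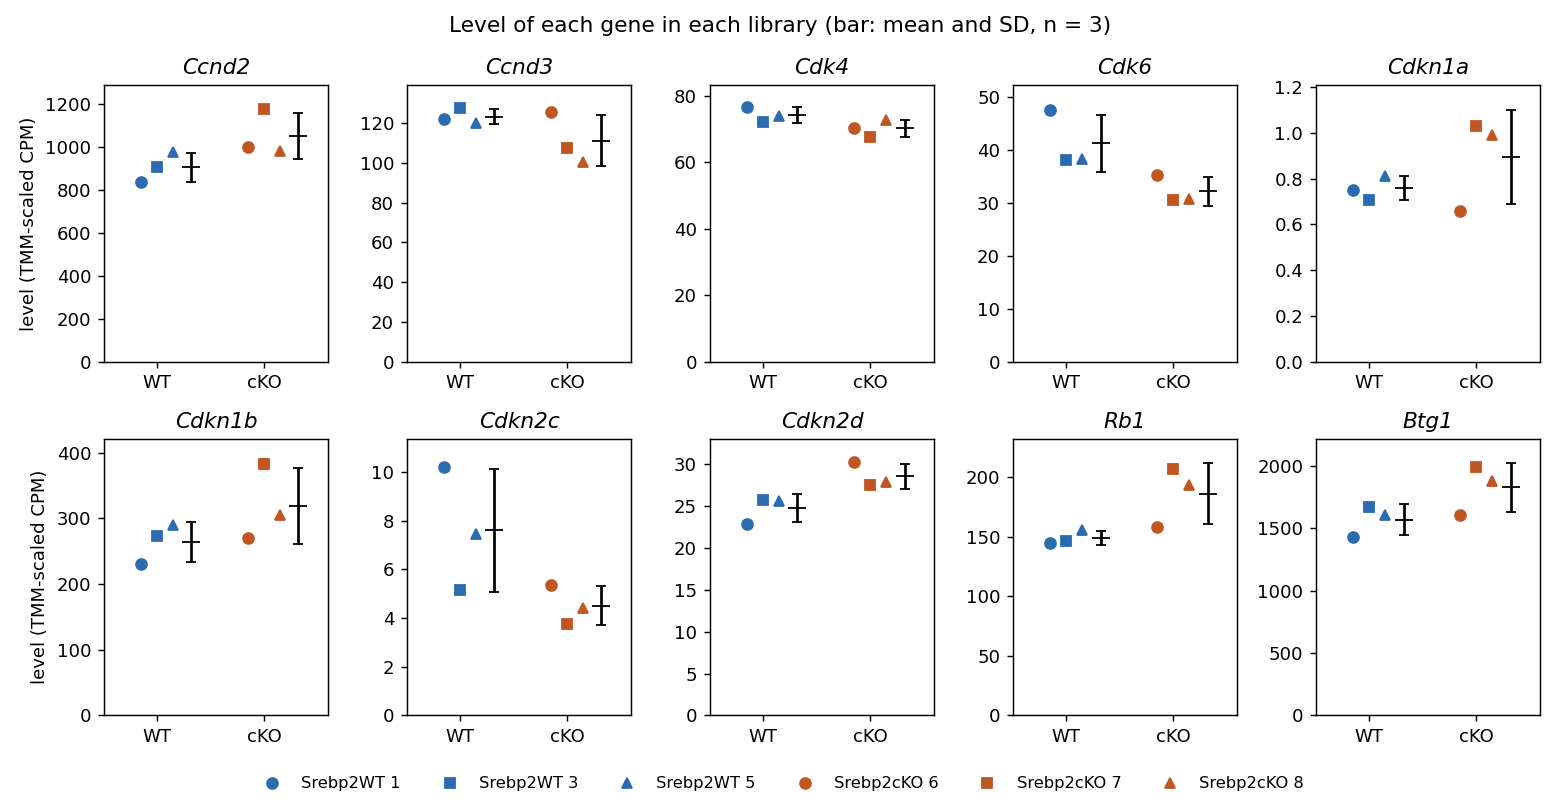
Level of each gene (TMM-scaled CPM, linear axes from 0) in each of the 6 libraries, with a marker per library and a bar for the mean and SD of 3 libraries per genotype. Ccnd2, Cdkn2d and Rb1 were higher in every Srebp2cKO library than in any Srebp2WT library, and Cdk6 was lower. The levels were not adjusted for transcript GC, and with that trend removed the genotypes overlapped for Ccnd2 and Rb1.

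Divided by the length of the longest transcript, so that genes can be compared, Srebp2WT levels spanned from 314 ± 24.7 CPM per kb for Btg1 to 0.364 ± 0.0250 for Cdkn1a (SD, n = 3). Between these stood, in falling order, Ccnd2 at 143, Cdkn1b at 58.1, Cdk4 at 36.2, Ccnd3 at 31.95, Rb1 at 31.95, Cdkn2d at 17.4, Cdk6 at 3.58 and Cdkn2c at 3.08 CPM per kb. Neighbours in this order were separated in every library except Ccnd3 from Rb1 and Cdk6 from Cdkn2c. In Srebp2cKO the order was the same apart from Rb1, whose level of 40.0 ± 5.49 CPM per kb stood above that of Cdk4 (34.2 ± 1.22) and Ccnd3 (28.8 ± 3.35), with ranges that overlapped between Rb1 and Cdk4. The transcripts of the quiescence-associated Btg1 and of Cdkn1b thus stood among the 3 highest levels per kb of the set in both genotypes, together with Ccnd2.

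Among the D-type cyclins, Ccnd2 (chr6:127125162-127152193, minus strand, in GENCODE M21 on GRCm38) provided 87.3 to 91.6% of the counts of the family in every library and Ccnd3 the rest. Ccnd1, the third D-type cyclin, had 0, 0 and 0 counts in Srebp2WT and 1, 1 and 2 in Srebp2cKO, which is within the floor of 3 counts. Ccnd2 measured 837, 904 and 974 CPM in Srebp2WT libraries 1, 3 and 5 and 1001, 1175 and 978 CPM in Srebp2cKO libraries 6, 7 and 8. All Srebp2cKO libraries were above all Srebp2WT libraries, though Srebp2cKO library 8 and Srebp2WT library 5 were nearly level. The difference was 0.22 on the log2 scale (SE 0.09, 95% interval 0.0071 to 0.43), with an adjusted p of 0.160 in edgeR's quasi-likelihood test. Without Srebp2cKO library 7 it was 0.12.

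Ccnd3 (chr17:47505051-47599691, plus strand) encodes cyclin D3, which lymphoid progenitors depend on. It measured 122, 127 and 120 CPM in Srebp2WT and 126, 107 and 101 CPM in Srebp2cKO. The genotypes overlapped, because Srebp2cKO library 6 lay within the Srebp2WT range while libraries 7 and 8 lay below it. On the log2 scale the difference was -0.15, with an SE of 0.09, a 95% interval of -0.35 to 0.05 and an adjusted p of 0.287 in edgeR. It was -0.24 without Srebp2cKO library 6 and -0.08 without library 8. The ratio of Ccnd2 to Ccnd3 counts, which does not depend on how libraries are scaled, was 6.85, 7.10 and 8.10 in Srebp2WT and 7.97, 10.95 and 9.73 in Srebp2cKO. Its mean was 1.30 times as high in Srebp2cKO, with overlapping ranges. The ratio does depend on the trend on transcript GC described below, as Ccnd2 has 47.1% GC and Ccnd3 56.7%. With that trend removed, the log2 fold changes were 0.16 for Ccnd2 and 0.02 for Ccnd3.

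The catalytic partners, CDK4 and CDK6, had differences of unlike size. Cdk4 (chr10:127063534-127067920, plus strand) measured 76.7, 72.1 and 73.9 CPM in Srebp2WT and 70.4, 67.7 and 72.7 CPM in Srebp2cKO, with overlapping ranges. Its log2 fold change of -0.08 (SE 0.07, 95% interval -0.24 to 0.08) did not pass the test (adjusted p = 0.499, edgeR). The interval covers a level from 0.845 to 1.06 times that in Srebp2WT. Cdk4 shares 641 of its 3249 exonic bases (19.7%) with Tspan31 on the other strand. Tspan31 had 364 to 601 counts, and without knowledge of the counting's strand setting, reads in the shared stretch cannot be assigned with certainty.

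Cdk6 (chr5:3341485-3531008, plus strand), the other partner of D-type cyclins, measured 47.5, 38.1 and 38.2 CPM in Srebp2WT and 35.3, 30.5 and 30.8 CPM in Srebp2cKO. Every Srebp2cKO library was below every Srebp2WT library, and the gap between the nearest of them was small beside the distance of Srebp2WT library 1 from libraries 3 and 5. The Srebp2cKO level was 77.9% of that in Srebp2WT (log2 fold change -0.36, SE 0.11, 95% interval -0.61 to -0.11), with an adjusted p of 0.0751 in edgeR. The Cdk6 to Cdk4 ratio was 0.619, 0.528 and 0.517 in Srebp2WT and 0.502, 0.450 and 0.423 in Srebp2cKO. These ranges did not overlap, and the mean ratio in Srebp2cKO was 0.826 of that in Srebp2WT. No p is given for a ratio between genes chosen with results known.

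The INK4 inhibitors had fold changes of opposite sign, neither of which passed the test. Cdkn2c (chr4:109660876-109667189, minus strand; p18) had 163, 80 and 110 counts in Srebp2WT and 73, 58 and 76 in Srebp2cKO, or 10.2, 5.15 and 7.45 CPM against 5.36, 3.74 and 4.43 CPM. Srebp2WT library 3 lay below Srebp2cKO library 6, so the genotypes overlapped. The mean level in Srebp2cKO was 59.1% of that in Srebp2WT, the difference with the greatest size among the 10 (log2 fold change -0.76, SE 0.26, 95% interval -1.33 to -0.19, adjusted p = 0.0940 in edgeR). Without Srebp2WT library 1 the log2 fold change of Cdkn2c was at its smallest among fits that left out a library, at -0.48. The cycling marker Mki67 also had its highest levels in Srebp2WT libraries 1 and 5 (85.8 and 80.3 CPM) and its lowest in Srebp2cKO library 7 (29.9 CPM), as Cdkn2c did, but Srebp2cKO library 8 stood above Srebp2WT library 3 for Mki67 (54.0 and 40.0 CPM) and below it for Cdkn2c.

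Cdkn2d (chr9:21288410-21291407, minus strand; p19) measured 22.9, 25.8 and 25.7 CPM in Srebp2WT and 30.3, 27.5 and 27.9 CPM in Srebp2cKO. All Srebp2cKO libraries lay above all Srebp2WT libraries. They differed by 0.21 on the log2 scale (SE 0.10), with an interval of -0.0098 to 0.42 and an adjusted p of 0.188 in edgeR. The Cdkn2c to Cdkn2d ratio was 0.447, 0.200 and 0.290 in Srebp2WT and 0.177, 0.136 and 0.159 in Srebp2cKO, without overlap, and its mean in Srebp2cKO was 0.504 of that in Srebp2WT. Cdkn2d held 68.6 to 82.8% of INK4 counts in Srebp2WT and 84.6 to 87.7% in Srebp2cKO. The remaining INK4 genes, Cdkn2a and Cdkn2b, had 0 to 4 counts in any library.

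**Figure D2:**
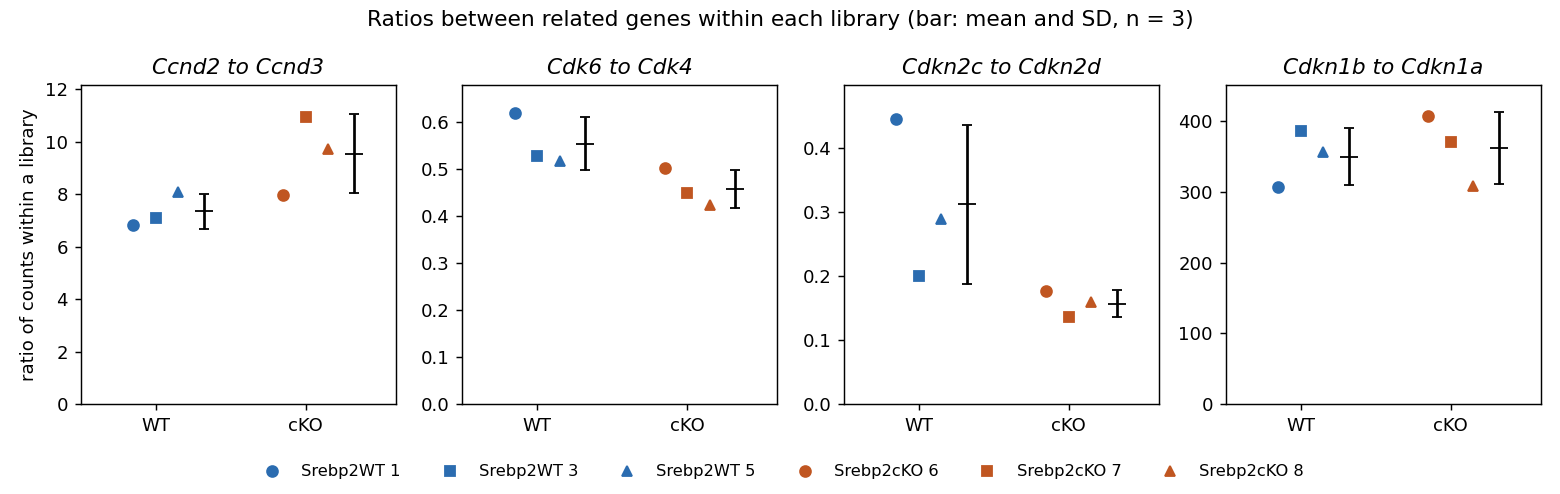
Ratio of counts of related genes within each library (linear axes from 0), with a marker per library and a bar for the mean and SD of 3 libraries per genotype. Cdk6 to Cdk4 and Cdkn2c to Cdkn2d were lower in every Srebp2cKO library than in any Srebp2WT library, while Ccnd2 to Ccnd3 and Cdkn1b to Cdkn1a overlapped. The counts were not adjusted for transcript GC. The pairs were chosen with results known, and no background was computed for ratios. Among single tested genes, 31.5% had genotypes that did not overlap.

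Of the CIP/KIP inhibitors, Cdkn1b (chr6:134920401-134925513, plus strand), which encodes p27, held 99.1 to 99.5% of the family's counts. It measured 230, 273 and 289 CPM in Srebp2WT and 269, 383 and 305 CPM in Srebp2cKO. Libraries 7 and 8 lay above all Srebp2WT libraries, but library 6 lay below Srebp2WT libraries 3 and 5. The log2 difference of 0.27 had an SE of 0.13, a 95% interval of -0.01 to 0.56 and an adjusted p of 0.191 in edgeR. Without Srebp2cKO library 7 it was 0.11. Cdkn1a (chr17:29090976-29100727, plus strand), which encodes the p53-induced inhibitor p21, had 12, 11 and 12 counts in Srebp2WT and 9, 16 and 17 in Srebp2cKO. At this depth its interval, -0.53 to 1.03 around a log2 fold change of 0.25 (SE 0.35, adjusted p = 0.662 in edgeR), covers a level from 0.694 to 2.04 times that in Srebp2WT. The counts therefore settle neither the direction nor the size of a difference in Cdkn1a. Without Srebp2cKO library 7 the Cdkn1a difference was 0.14, and without library 6 it was 0.42. The Cdkn1b to Cdkn1a ratio was 306, 386 and 356 in Srebp2WT and 407, 371 and 308 in Srebp2cKO, so the ranges overlapped.

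Rb1 (chr14:73183673-73325822, minus strand), the target of the cyclin D kinases, measured 145, 146 and 155 CPM in Srebp2WT and 158, 207 and 194 CPM in Srebp2cKO. The Srebp2WT libraries lay close together, Srebp2cKO library 6 was just above them, and libraries 7 and 8 stood well above. The Srebp2cKO level was 125% of that in Srebp2WT (log2 fold change 0.33, SE 0.10, 95% interval 0.11 to 0.55), with an adjusted p of 0.0727 in edgeR and of 0.0333 in DESeq2, which called 10.8% of the genes it tested. Within the RB family, Rb1 held 26.6, 28.7 and 27.5% of counts in Srebp2WT and 31.5, 37.1 and 35.1% in Srebp2cKO. Rbl2, which encodes p130, the family member of resting cells, held 54.8, 51.5 and 52.7% and 48.7, 42.2 and 45.5% in the same order. The share of Rb1 was higher, and that of Rbl2 lower, in every Srebp2cKO library than in any Srebp2WT library. Rbl2 was the most counted member in all 6. Shares of one total are not independent of each other, and no background was computed for them. They were not adjusted for transcript GC (41.2% for Rb1 and 47.0% for Rbl2). With the GC trend described below removed, the Rb1 levels of the genotypes overlapped.

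Genes beside Rb1 on chromosome 14 were called in both directions. Of the 5 tested genes on either side, Rcbtb2 rose from 31.3 ± 3.48 CPM in Srebp2WT to 81.6 ± 3.63 CPM in Srebp2cKO (SD, n = 3), a log2 fold change of 1.38 (edgeR, adjusted p = 4.25e-05), and Lpar6, a lysophosphatidic acid receptor gene within the span of Rb1, rose from 63.0 ± 11.1 CPM to 112 ± 6.83 CPM, one of 0.83 (adjusted p = 0.00465). Cysltr2, a leukotriene receptor gene, fell from 13.5 ± 3.39 CPM to 2.55 ± 0.363 CPM, a log2 fold change of -2.40 (edgeR, adjusted p = 2.63e-04). Rb1 shares 488 of its 6015 exonic bases (8.11%) with Rcbtb2 and 408 (6.78%) with Lpar6, both on the other strand. Rcbtb2 had 502, 430 and 512 counts in Srebp2WT and 1058, 1274 and 1456 in Srebp2cKO, while Rb1 had 2307, 2270 and 2297 and then 2151, 3216 and 3326. The part of shared reads in the Rb1 value was not tested. Among the tested neighbours of the other genes, Dtx3 near Cdk4 was called lower (log2 fold change -0.64, adjusted p = 0.00750 in edgeR) and the gene model Gm15772 near Cdk6 higher (0.37, adjusted p = 0.0393), and those of the remaining 7 genes had no call at that threshold.

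**Figure D3:**
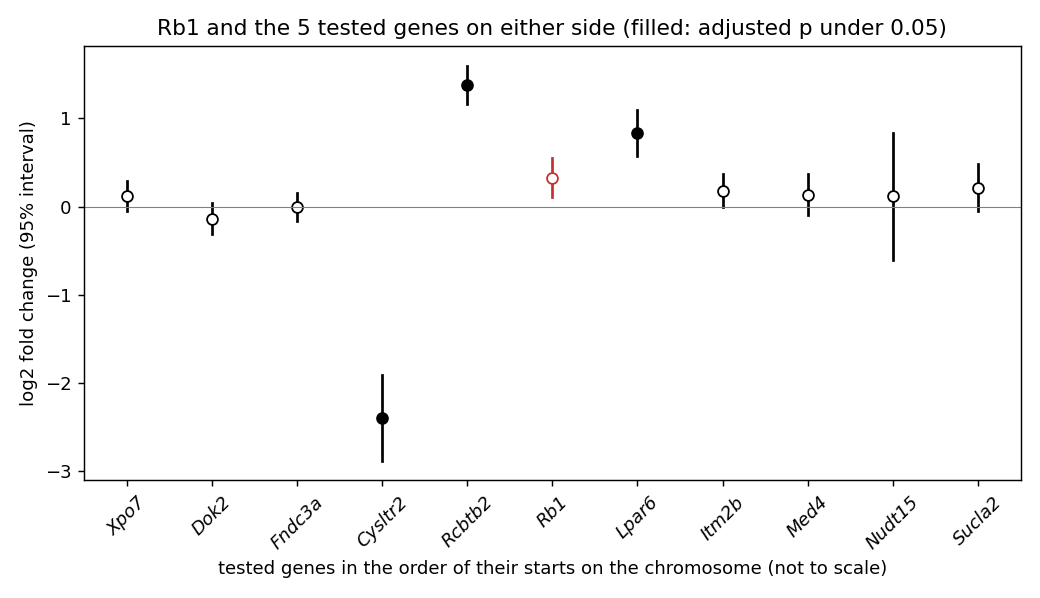
Log2 fold change (Srebp2cKO minus Srebp2WT, with 95% interval) of Rb1 (red) and the 5 tested genes on either side in chromosomal order, filled where the adjusted p was under 0.05. Rcbtb2 and Lpar6 were higher and Cysltr2 lower, while Rb1 at 0.33 was not called.

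Btg1 (chr10:96617006-96622809, plus strand) had the highest level of the 10 genes and measured 1432, 1669 and 1612 CPM in Srebp2WT and 1610, 1996 and 1882 CPM in Srebp2cKO. Srebp2cKO libraries 7 and 8 were above the Srebp2WT range and library 6 lay inside it. The genotypes differed by 0.22 on the log2 scale (SE 0.10), with an interval of -0.0011 to 0.44 and an adjusted p of 0.173 in edgeR. Srebp2cKO library 7 had the highest level of Ccnd2, Cdkn1a, Cdkn1b, Rb1 and Btg1 and the lowest of Cdk4, Cdk6 and Cdkn2c. Srebp2WT library 1 had the lowest level of Ccnd2, Cdkn1b, Cdkn2d, Rb1 and Btg1 and the highest of Cdk4, Cdk6 and Cdkn2c.

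A library property that moved with genotype was the dependence of level on the GC content of transcripts. The slope of log2 level on GC, per 10 percentage points, was 0.151, 0.178 and 0.0224 in Srebp2WT and 0.0105, -0.245 and -0.116 in Srebp2cKO. Transcripts of Rb1 (41.2% GC), Btg1 (43.1%) and Cdkn1b (43.1%) fell in a decile of genes by GC whose median log2 fold change was 0.16, and those of Ccnd3 (56.7%) and Cdkn2d (55.8%) in a decile with a median of -0.17. Cdk6 lay below the median of its decile (0.12) and Cdkn2d above it, whereas Ccnd3 at -0.15 was close to it.

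When a smooth trend on GC was removed from each library, edgeR called 6.03% of 11446 genes and 2 of the 10. Cdk6 fell from 57.3, 46.1 and 43.8 to 40.2, 32.5 and 33.7 on that adjusted CPM scale (log2 fold change -0.47, SE 0.12, 95% interval -0.73 to -0.21, adjusted p = 0.0443). Cdkn2d rose from 24.8, 27.1 and 28.9 to 34.3, 35.2 and 33.3 (0.35, SE 0.09, 95% interval 0.15 to 0.54, adjusted p = 0.0458). The Rb1 difference was then 0.12 (adjusted p = 0.307), that of Btg1 0.06 (adjusted p = 0.690) and that of Cdkn1b 0.11 (adjusted p = 0.547). The GC-adjusted differences of Ccnd3 and Cdk4 were 0.02 and 0.01, with signs opposite to those without the adjustment. Cdkn2c kept its direction at -0.56 (adjusted p = 0.222). With 1 library also left out, the GC-adjusted call of Cdk6 held only without Srebp2WT library 5 or without Srebp2cKO library 6, and that of Cdkn2d only without Srebp2WT library 5. Why the slopes differ between libraries was not tested.

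**Figure D4:**
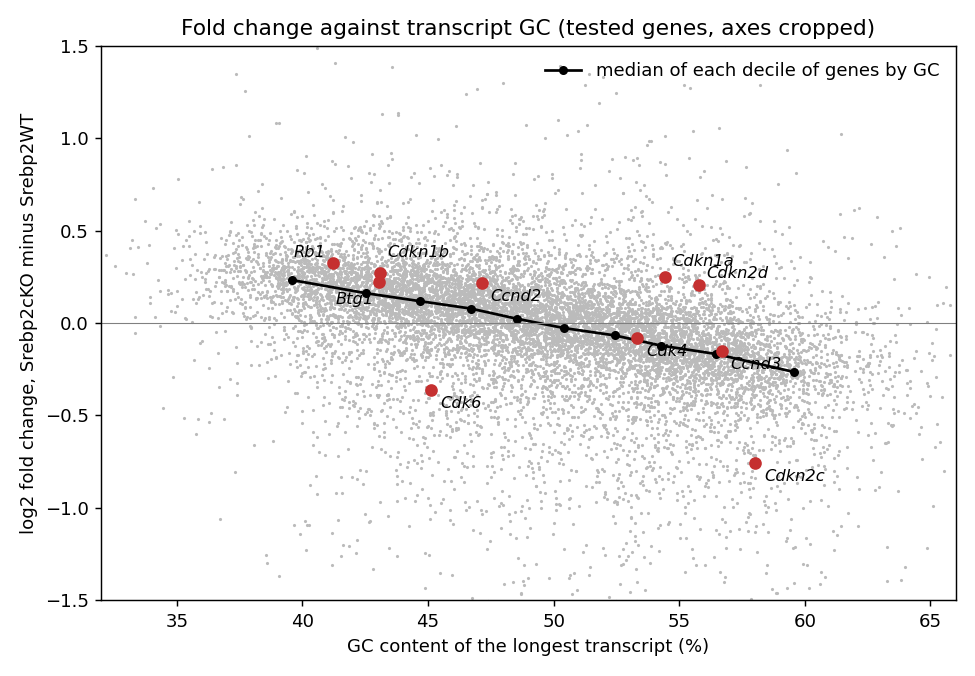
Log2 fold change (Srebp2cKO minus Srebp2WT) against the GC content of the longest transcript for tested genes (grey), with the median of each decile of genes by GC (black line) and the 10 genes in red (axes cropped). Rb1, Btg1 and Cdkn1b sit on the GC-poor side where the median is above 0, and Cdk6 and Cdkn2c lie well below the line.

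**Figure D5:**
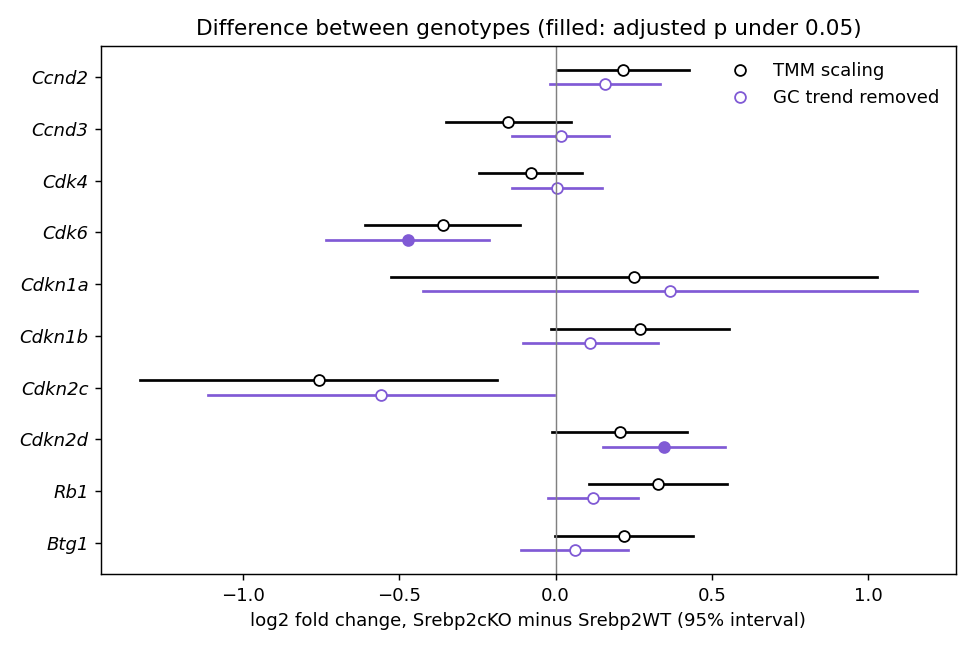
Log2 fold change with its 95% interval for each gene, with TMM scaling (black) and with the GC trend removed (purple), filled where the adjusted p was under 0.05. No gene is filled in black, and Cdk6 (lower) and Cdkn2d (higher) are filled in purple.

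The surrounding pathway was described with 6 lists of 102 genes, of which 98 were tested, 2 were called higher and 2 lower, against the 6.61% called among all genes. These 4 calls became 0 without Srebp2WT library 1, 1 without Srebp2WT library 3 or Srebp2cKO library 7 or 8, 2 without Srebp2WT library 5 and 11 without Srebp2cKO library 6. In the list of other G1 cyclins, kinases and inhibitors, 13 of 16 genes were tested and none passed edgeR's test, 3 of them having an unadjusted p under 0.05, with a median log2 fold change of 0.01. Its genes with the smallest p were Ccnh, a subunit of the CDK-activating kinase (26.7 ± 0.168 CPM against 33.1 ± 2.18, log2 fold change 0.31, adjusted p = 0.0651), and Ccnc, a Mediator cyclin (0.35, adjusted p = 0.102). Cdk7 and Mnat1, which complete the CDK-activating kinase and were singled out after their values were seen, had log2 fold changes of 0.18 and 0.24. All Srebp2cKO libraries were above all Srebp2WT libraries for each of the 3 subunits, as they were for 16.0% of all tested genes. With the GC trend removed, Ccnh stood at 0.05 (adjusted p = 0.769), Cdk7 at 0.04 (adjusted p = 0.792) and Mnat1, with the opposite sign, at -0.03 (adjusted p = 0.910).

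None of the 18 tested genes of the RB family, E2F and DREAM list passed, with 3 at an unadjusted p under 0.05 and a median of -0.11. Rbl2 measured 286 ± 20.3 CPM in Srebp2WT and 244 ± 7.91 in Srebp2cKO (SD, n = 3), a log2 fold change of -0.23 (adjusted p = 0.0903 in edgeR). It was called lower with the GC trend removed (-0.29, adjusted p = 0.0314), a call kept in 1 of 6 fits with a library also left out, that without Srebp2WT library 3. E2f2, an activator E2F, had a log2 fold change of -0.25 (adjusted p = 0.105), or -0.09 with the GC trend removed (adjusted p = 0.611).

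Among 20 tested upstream regulators, 1 gene rose and none fell, with a median of -0.05, or 0.03 with the GC trend removed, where 2 rose. Klf2, a factor of quiescent T cells, measured 189, 234 and 232 CPM in Srebp2WT and 300.4, 313 and 291 CPM in Srebp2cKO (log2 fold change 0.46, SE 0.09, adjusted p = 0.0203 in edgeR). All Srebp2cKO libraries were above the Srebp2WT range, and the call was lost without Srebp2WT library 1 or library 3 (adjusted p up to 0.0754). Myc measured 113, 115 and 114 CPM and then 144, 147 and 120 CPM (0.26, adjusted p = 0.0906), and it was called higher with the GC trend removed (0.35, adjusted p = 0.0404), a call that was kept in 1 of 6 fits with a library also left out, that without Srebp2cKO library 8. Foxo1, named after its values were seen because of the FOXO letters above, measured 427 ± 20.8 CPM in Srebp2WT and 492 ± 17.3 in Srebp2cKO (SD, n = 3), a log2 fold change of 0.20 that did not pass (adjusted p = 0.106 in edgeR).

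Of 16 genes of the BTG family and the CCR4-NOT complex, 1 rose, none fell and 13 had positive fold changes, with a median of 0.13. With the GC trend removed, none of 15 tested was called, 10 were positive and the median was 0.05. Cnot6, a deadenylase subunit, rose from 234 ± 18.0 CPM in Srebp2WT to 301 ± 24.5 CPM in Srebp2cKO (edgeR, log2 fold change 0.36 with an adjusted p of 0.0367), but stood at 0.13 with the GC trend removed (adjusted p = 0.190), and its call was also lost with total-count scaling and without Srebp2WT library 1 or 3 or Srebp2cKO library 7 or 8. Tob1, a relative of Btg1, had a log2 fold change of 0.55 (adjusted p = 0.0699).

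Genes that act after RB had lower medians. Of 16 E2F targets of S phase, 1 fell and none rose, with a median of -0.19, or -0.20 with the GC trend removed. Tyms, which makes thymidylate for DNA synthesis, fell from 13.4 ± 1.45 CPM in Srebp2WT to 8.88 ± 0.678 CPM in Srebp2cKO (edgeR, log2 fold change -0.60 with an adjusted p of 0.0332). Leaving out a library kept this call in 1 of 6 fits, that without Srebp2cKO library 6. Tk1, a thymidine kinase, had a log2 fold change of -0.61 (adjusted p = 0.123). All 15 genes of G2 and mitosis had negative fold changes (median -0.56), and 1 was called, where 6.61% of all tested genes were. Every Srebp2cKO library was below every Srebp2WT library for 2 of the 15, against 15.5% of all genes. Counts were low for several, such as Ube2c (4 to 35 counts). With the GC trend removed, 14 were negative (median -0.63), and 1 was called. Cenpa, the centromeric histone, fell from 26.9 ± 1.16 CPM in Srebp2WT to 20.5 ± 1.30 CPM in Srebp2cKO (edgeR, log2 fold change -0.39 with an adjusted p of 0.0436), a call lost with any of the 6 libraries left out. Mki67 had a log2 fold change of -0.78 (adjusted p = 0.102), with 85.8, 40.0 and 80.3 CPM in Srebp2WT and 36.1, 29.9 and 54.0 CPM in Srebp2cKO, which overlap. Genes of one list share libraries and are not replicates, so these medians describe the 6 libraries.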

How the data were processed

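RNA-seq of 6 libraries was analysed from raw counts per gene, deposited by the authors as whole numbers. Per the labels' protocols, total RNA (Qiagen RNeasy) went into KAPA RNA HyperPrep libraries with RiboErase. The submitters' processing notes name HISAT2 2.2.1, mm10 and Cell Ranger without their roles. Which tool, annotation and strand setting produced the counts is not stated there, and not given in other sources used here. The members and gene lists were chosen with earlier results of these data known. Named genes were all members and, per list, every gene that passed and the 2 with the smallest p where fewer than 2 passed. Tested neighbours were named where they passed.

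Genes kept by filterByExpr were scaled with TMM and tested with edgeR 4.0.16 (R 4.3.3), glmQLFit and glmQLFTest, on all 6 libraries without covariates. P-values were adjusted by Benjamini-Hochberg over all tested genes, and a call is an adjusted p under 0.05. SE is the size of the log2 fold change over the square root of F. Levels are TMM-scaled CPM, and marker sums are CPM of total counts. Alternatives were other scalings, DESeq2 1.42.0, limma-voom (limma 3.58.1), a robust fit, other filters and thresholds, structural RNAs left out, removal of a loess trend (span 0.3) on transcript GC, and each library left out. Positions, lengths and GC are from GENCODE M21 (GRCm38; 23376 symbols matched) or RefSeq (265 more).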

Additional observations from a re-analysis of the deposited data

How the results depend on the processing

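No paired analysis was possible because the genotypes share no replicate number (1, 3 and 5 against 6, 7 and 8). Of 24 settings other than the one reported, 17 called none of the 10 genes (13 of 17 planned ones; the other 7 settings, which combine GC removal with each library left out or with its mean, were chosen after seeing the data). DESeq2 called 1 (Rb1), a false discovery rate of 0.1 called 3 (Cdk6, Cdkn2c and Rb1), GC removal 2 with or without its mean, and leaving out each library 0 to 2, or 0 to 2 with GC removal. Genes called in all were 1353 with DESeq2, 1205 with no filter and 1893 at a false discovery rate of 0.1. They ranged from 167 to 1487 with a library left out, and from 243 to 774 with GC removal as well (283, 381 and 300 without Srebp2WT library 1, Srebp2cKO library 6 and Srebp2cKO library 7). Of the other cell cycle genes, 4 in the reported fit, DESeq2 called 7 and the wider threshold 10, leaving out a library 0 to 11, and GC removal with a library left out 1 to 5. Total-count scaling gave 184 higher and 570 lower calls, against 283 and 506. Scalings shifted the median of all genes by at most 0.03, or 0.05 for GC removal with its mean, in log2 units.

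Of the 10 genes, 8 kept 1 sign in every setting that tested them. Cdkn1a was tested in 23 of the 24, as it did not pass the filter of at least 1 CPM in 3 libraries. Among the genes followed over the settings (the 10, 12 others of the lists and Srebf2), signs turned for Ccnd3, Cdk4, Ccnh and Ccnc. Ccnd3 was at 0.0163 with GC removal, 0.0711 with its mean, and 7.06e-05, 0.0109, 0.0229 and 0.0821 with GC removal without Srebp2WT libraries 1, 3 and 5 and Srebp2cKO library 8. Cdk4 was at 0.00567 with GC removal, 0.0605 with its mean, and 0.0275, 0.00583, 0.0291 and 0.00145 with GC removal without Srebp2WT libraries 1 and 5 and Srebp2cKO libraries 6 and 7. Ccnh was at -0.00678 with GC removal without Srebp2WT library 5, and Ccnc at -0.00792 with it without Srebp2cKO library 8. Adjusted p ranged over the settings from 0.0320 to 0.276 for Cdk6, from 0.0335 to 0.461 for Cdkn2d and from 0.0186 to 0.566 for Rb1. Apart from the construction of each setting, the cause of these shifts was not tested. Depth limits Cdkn1a most, with 9 to 17 counts a library, and intervals cover the spread between these samples only.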
